A study of Homo sapiens with 4 samples.

Results

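The 53 genes described here encode the machinery of mitosis, namely the spindle assembly checkpoint, the kinetochore, the mitotic kinesins, the spindle assembly factors, the condensin subunits and the proteins of sister chromatid separation and cytokinesis. They were chosen by what their proteins do, with earlier results of these data known, and matched by symbol to a table of 23362 genes. All 53 were found, none under a repeated symbol, and all 53 passed the filter of an FPKM (fragments per kilobase of transcript, scaled to the mapped fragments of a library) reaching 1 in any library, as did 11769 genes in all. RNA came from MKN28, a human gastric adenocarcinoma cell line, in which a retroviral tet-on construct drove luciferase (Luc, the control), HA-tagged KIAA1324 WT, the 3NQ mutant, in which the asparagines of 3 putative N-glycosylation sites are replaced by glutamine, or ΔTM, which lacks the transmembrane domain. Poly(A) RNA of each line was sequenced as 1 library, so that no difference below has a replicate check and no test was made. Whether each line is a clone or a pool, and whether the cells received doxycycline before RNA extraction, is not stated in the sources used here.

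Spindle microtubules capture each chromosome at its kinetochore, and the checkpoint holds back the anaphase-promoting complex until every kinetochore is attached. Destruction of securin and cyclin B then frees separase to cut cohesin, and the central spindle and the contractile ring divide the cell. Transcripts of most of these proteins accumulate in G2 and M phase, under promoters that often carry a cell cycle homology region (CHR) bound by the DREAM and B-MYB-MuvB complexes, and their level in a culture is widely used as a measure of proliferation. In bulk RNA, fewer cells in G2 and M phase and less of each transcript per cell cannot be told apart.

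The transgene itself, KIAA1324, reached an FPKM of 11185 with WT and 8197 with 3NQ from 2.86 in the control. It was listed at 0 where ΔTM was labelled, below the control. Whether this 0 reflects the cells, the label or the quantification cannot be told from FPKM alone. This library is therefore called the library labelled ΔTM throughout. The epithelial genes EPCAM, KRT8, KRT18, KRT19 and CDH1 were at an FPKM of at least 233 in every library, PTPRC, a leukocyte gene, was at most at 0.115, and COL1A1, a fibroblast gene, lay between 12.1 and 15.3. The FPKM of all genes summed to between 560540 and 585104. The deposited table holds no read counts, so that the depth behind each FPKM is unknown. Where 4 values follow a gene's name below, they are its FPKM in Luc, WT, 3NQ and the library labelled ΔTM, in that order, and where 3 log2 ratios or medians follow each other, they are those of WT, 3NQ and the library labelled ΔTM relative to Luc.

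The mitotic genes were lower with KIAA1324 WT than in the control almost without exception. Summed over the 53 genes, FPKM values were 3386, 2310, 2805 and 3019, so that the other libraries stood at 68.2%, 82.8% and 89.2% of the control. WT had the lowest FPKM of the 4 libraries for 49 of the 53 genes, as for 26.7% of all genes passing the filter. Luc had the highest for 46 of the 53, as for 30.6% of all genes. The order WT, 3NQ, library labelled ΔTM, Luc, from lowest to highest, was found for 39 of the 53, compared to 8.21% of all genes.

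Ratios were taken on log2(FPKM + 1), a scale that understates the change of low genes, and a gene was called lower or higher where the ratio reached 1.5-fold (a log2 ratio of 0.58). The median log2 ratio of WT to Luc was −0.55 over the 53 genes and −0.0049 over all 11769. Called lower in WT were 21 of the 53 and called higher 0, compared to 3.34% and 3.36% of all genes, and 52 of the 53 lay below 0, as did 50.9% of all genes. For 3NQ the members' median was −0.31, with 4 called lower and 0 higher (2.57% and 1.77% of all genes) and 51 below 0 (57% of all genes). With ΔTM as the label the median was −0.17, with 1 called lower and 0 higher (1.57% and 1.54% of all genes), so that this count was near the background, and 48 below 0 (63% of all genes). These 3 comparisons share the Luc library, and any peculiarity of that library enters each of them. The number called in WT rests on the threshold, because 28 of the 53 ratios lay within 0.1 of it. On this scale none reached 2-fold in any library (0.569%, 0.518% and 0.433% of all genes were lower by that much). In FPKM without the pseudocount, SPC24 in WT stood at 49.9% of Luc. With a pseudocount of 5 in place of 1, 10 were called in WT, compared to 1.09% of all genes. Relative to the mean of 3NQ and the library labelled ΔTM in place of Luc, WT had a median of −0.32, and only BIRC5 and SGOL1, 2 of the 53, were called lower, compared to 1.88% of all genes.

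**Figure D1:**
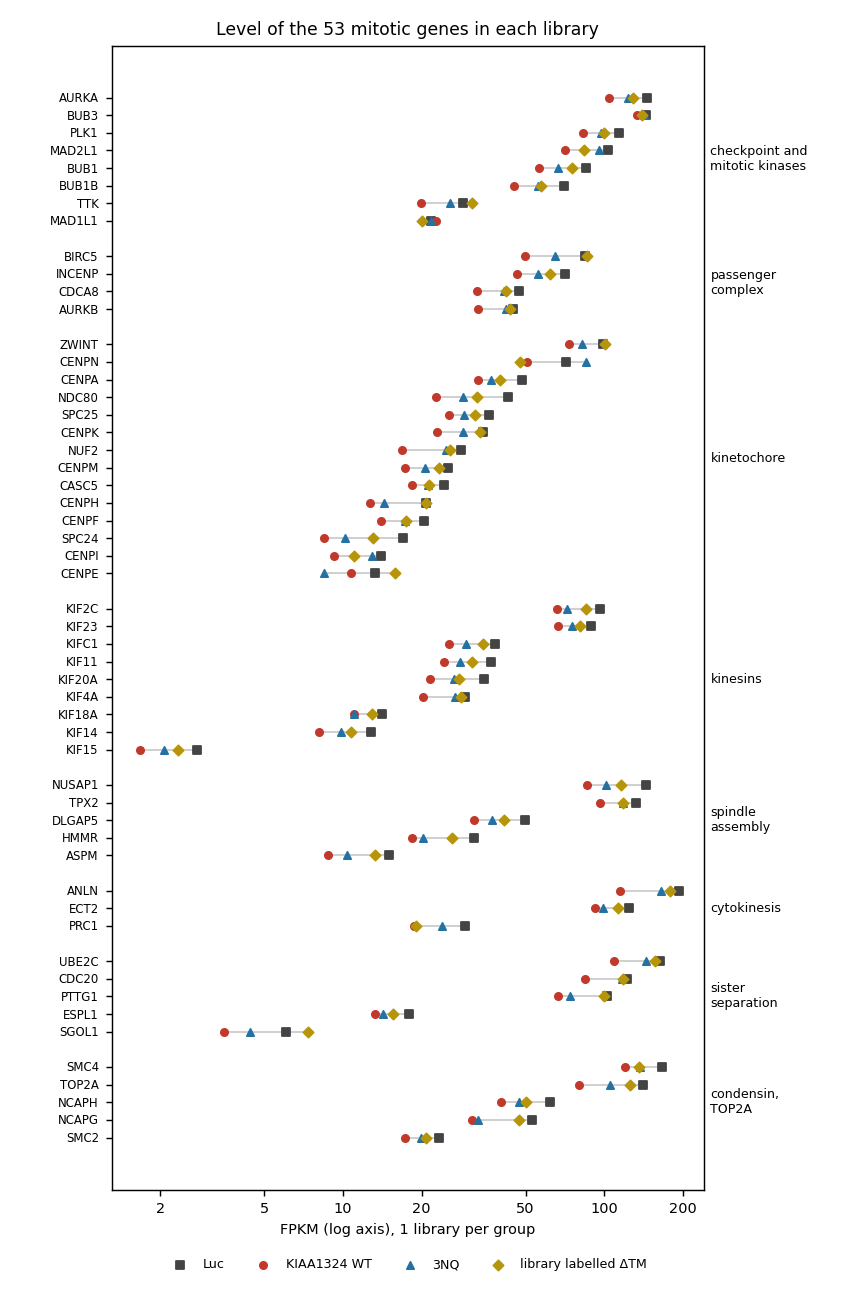
FPKM of each of the 53 mitotic genes (log axis) in the 4 libraries, 1 point per library, grouped by role and sorted by the level in Luc. WT (circles) is the lowest point for 49 genes, and Luc (squares) is the highest for 46.

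Comparisons without Luc gave the same direction for WT. The log2 ratio of WT to 3NQ was below 0 for 50 of the 53 genes, compared to 45.1% of all genes, with a median of −0.23 where all genes had 0.025. Only CENPN was called lower in WT than in 3NQ (1.58% of all genes were). Against the library labelled ΔTM, the ratio of WT was below 0 for 51 of the 53 (43% of all genes) and the median was −0.36, where all genes had 0.047. Called lower there were 7 genes, TTK, BIRC5, CENPH, NUF2, ANLN, SGOL1 and TOP2A, compared to 2.91% of all genes. 3NQ lay below the library labelled ΔTM for 45 of the 53 genes (45.7% of all genes), with a median log2 ratio of −0.12. CENPE and SGOL1 were called lower in 3NQ (1.88% of all genes were) and CENPN was called higher (1.46% of all genes were).

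On the log2(FPKM + 1) scale, the difference did not follow the level of the gene. The pseudocount of 1 shrinks the ratios of low genes most, so these values cannot show whether the unshrunk difference did. Among the 18 members of lowest mean FPKM (2.21 to 24.1), the median log2 ratio of WT to Luc was −0.53, among the next 17 (26.2 to 63.8) it was −0.57, and among the 18 highest (70.8 to 163) it was −0.53. Across the 53 genes, which share the 4 libraries, Spearman's correlation of mean FPKM with that ratio was 0.0085. The 35 members whose gene overlaps no other gene of the table had a median of −0.56.

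**Figure D2:**
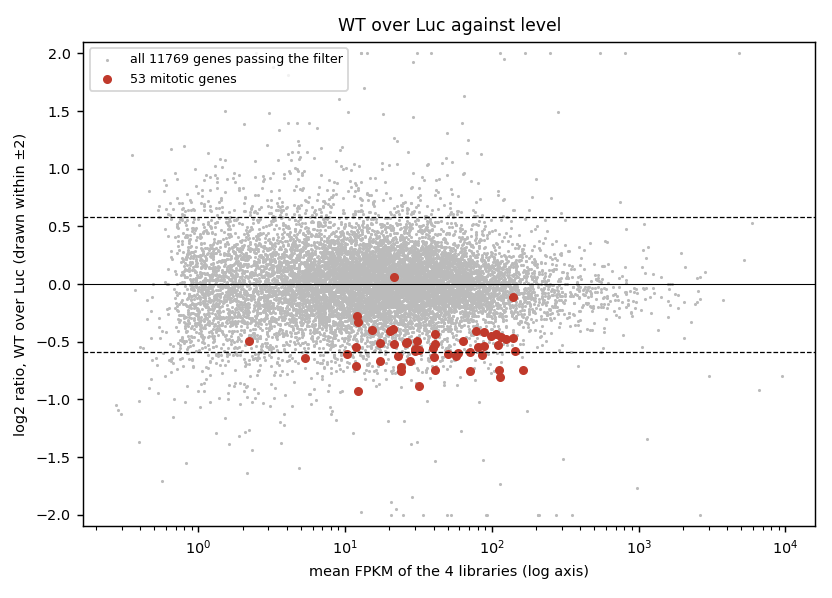
Log2 ratio of WT to Luc against the mean FPKM of the 4 libraries (log axis), with the 53 mitotic genes in red over all 11769 genes passing the filter, drawn within ±2, and dashed lines at 1.5-fold. The red points form a band below 0 at every level, and only MAD1L1 lies above 0.

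Most promoters found for these genes held the CHR motif, which was not itself used to choose them. Genes expressed in G2 and M phase often carry it, so its frequency is not independent of that choice. Windows of 250 bases before to 50 bases after the transcription start were taken from RefSeq (GRCh38.p14), the first listed window for each gene, and 44 of the 53 members matched by symbol or gene identifier. They were searched on both strands for TTTGAA (the core of the CHR), CCAAT (the box bound by NF-Y), and for TTTCCCGC and TTTGGCGC (E2F-like sites). None of these contains another, and in HMMR the run CCAATTGG holds CCAAT on both strands, overlapping. TTTGAA was found in 32 of the 44 windows (72.7%), compared to 15.4% of 27305 promoters. Within 100 bases before to 50 bases after the start, it was found in 30 of the 44 (68.2%), compared to 6.91% of all promoters and to 3.89% of the 9314 genes of the table that passed the filter and had a window. CCAAT was found in 32 of the 44 (72.7% against 35.7% of promoters), and both motifs in 24 (54.5% against 6.08%). TTTCCCGC was found in 1 window and TTTGGCGC in 2, or 2.27% and 4.55%, where 1.66% and 0.659% of all promoters held them.

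Holding the motif did not separate the members by their ratio. The 30 members with TTTGAA near the start had a median log2 ratio of WT to Luc of −0.53, and the 14 others had −0.60, among them BUB1, SPC24 and NCAPH, whose windows hold no TTTGAA. By role, it lay near the start in 7 of 9 kinesin windows, 3 of 3 of cytokinesis, 3 of 4 of spindle assembly, 7 of 11 of kinetochore, 3 of 5 of checkpoint, 3 of 5 of condensin, 2 of 3 of passenger and 2 of 4 of sister separation genes. No match says only that these letters are not in this window.

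**Figure D3:**
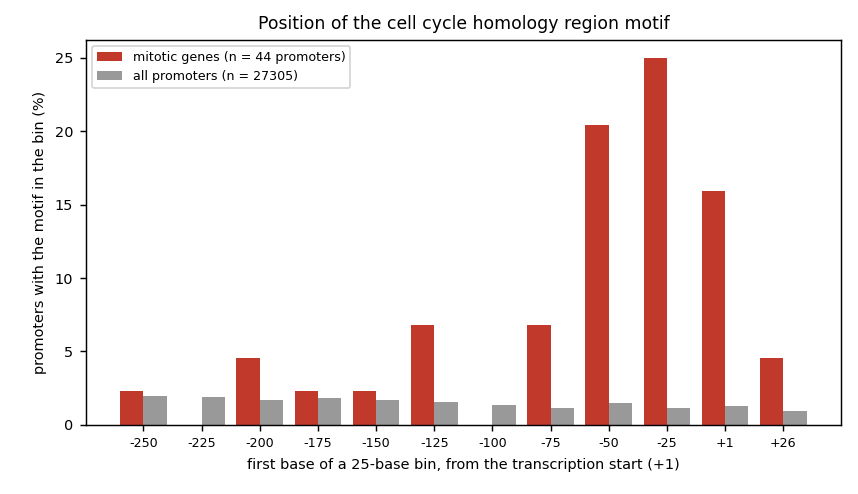
Share of promoters (%) with TTTGAA on either strand starting in each 25-base bin, counted from the transcription start, for the 44 mitotic genes with a window (red) and all 27305 promoters (grey). The red bars are tallest in the bins from −25 (11 of 44 promoters) and −50 (20.5%), where the grey bars stand at 1.13% and 1.49%.

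Shown here from 200 bases before to 10 bases after the start are the promoters of the 4 members with the lowest ratio in WT among those holding TTTGAA, and of MAD1L1, the member of smallest difference, for contrast. Capitals mark TTTGAA and CCAAT and their reverse complements TTCAAA and ATTGG. Each is printed 5′ to 3′ on the strand of its gene, at GRCh38.p14 chr18:2571357-2571566 (plus strand, NDC80), chr17:40417887-40418096 (minus strand, TOP2A), chr5:163460432-163460641 (plus strand, HMMR), chr7:36389662-36389871 (plus strand, ANLN) and chr7:2232936-2233145 (minus strand, MAD1L1).
NDC80: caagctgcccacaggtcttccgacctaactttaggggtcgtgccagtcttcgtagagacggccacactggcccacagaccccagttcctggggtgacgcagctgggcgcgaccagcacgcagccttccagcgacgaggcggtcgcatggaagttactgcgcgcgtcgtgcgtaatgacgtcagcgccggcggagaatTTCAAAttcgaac
TOP2A: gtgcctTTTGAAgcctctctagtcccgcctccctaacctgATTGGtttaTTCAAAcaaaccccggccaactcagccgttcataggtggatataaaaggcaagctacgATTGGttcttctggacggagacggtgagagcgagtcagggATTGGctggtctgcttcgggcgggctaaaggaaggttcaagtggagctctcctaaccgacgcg
HMMR: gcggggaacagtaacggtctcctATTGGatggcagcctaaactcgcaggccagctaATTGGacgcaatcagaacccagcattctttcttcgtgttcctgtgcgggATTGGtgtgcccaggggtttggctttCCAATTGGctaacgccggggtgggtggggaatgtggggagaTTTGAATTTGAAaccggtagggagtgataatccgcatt
ANLN: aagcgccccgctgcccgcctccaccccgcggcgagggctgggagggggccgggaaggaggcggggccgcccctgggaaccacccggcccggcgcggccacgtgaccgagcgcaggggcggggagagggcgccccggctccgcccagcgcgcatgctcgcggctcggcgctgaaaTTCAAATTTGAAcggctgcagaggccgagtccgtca
MAD1L1: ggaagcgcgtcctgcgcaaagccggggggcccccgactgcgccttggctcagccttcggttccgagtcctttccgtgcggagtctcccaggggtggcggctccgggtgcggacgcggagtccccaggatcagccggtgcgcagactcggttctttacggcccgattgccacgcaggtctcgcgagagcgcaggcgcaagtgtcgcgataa

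The TTTGAA of NDC80 spans the start itself, from position −3 to +3 with no position 0. In HMMR a tandem pair runs from −28 to −17, and in ANLN an inverted pair runs from −26 to −15. The motifs of TOP2A lie farther upstream, at −194 and −151, among 3 copies of CCAAT, each on the minus strand, within the stretch shown. MAD1L1 holds neither motif in the whole window.

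Checkpoint genes and mitotic kinases, 8 in number, had median log2 ratios of −0.49, −0.19 and −0.17. BUB1 (ENSG00000169679, GRCh37 chromosome 2 from 111395275 to 111435691), the kinase that recruits checkpoint proteins to the kinetochore, was at 85.1, 56.3, 66.3 and 75.3. Its log2 ratio to Luc, −0.59 in WT, passed the threshold narrowly. BUB1B, the BubR1 subunit of the complex that restrains CDC20, was at 70.1, 45.2, 55.8 and 57.1, a log2 ratio of −0.62 in WT. These were the 2 called genes of the group. MAD2L1 (−0.54), which closes around CDC20, TTK (−0.50), the kinase that starts checkpoint signaling, AURKA (−0.48) at the spindle poles and PLK1 (−0.45) lay short of it. AURKA was at 145, 104, 123 and 129.

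A pair of checkpoint genes stood apart. MAD1L1, which templates the active form of MAD2L1, was at 21.6, 22.6, 21.7 and 20.1, the only member not below Luc in WT, with a log2 ratio of 0.063. BUB3, the adaptor that carries BUB1 and BUB1B to the kinetochore and the gene of highest mean FPKM in the group, was at 144, 134, 142 and 140, a log2 ratio of −0.11. The partners of both proteins were thus lower in WT while BUB3 stood at 92.7% and MAD1L1 at 105% of the control.

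The chromosomal passenger complex, which corrects faulty attachments and guides cytokinesis, had medians of −0.56, −0.26 and −0.098. Its summed FPKM was 247 in Luc and 161 in WT, 65.4% of the control. BIRC5, or survivin, was at 84.3, 49.6, 64.7 and 86.0, lower in WT (−0.75) but level with Luc under the ΔTM label (0.029). INCENP, the scaffold, was at 70.6, 46.5, 55.8 and 61.8, a log2 ratio of −0.59. The kinase AURKB differed least in WT, at 44.7, 32.7, 42.1 and 43.5 (−0.44), and CDCA8, or borealin, had −0.52. In WT, each of the 4 genes lay farther from Luc than under either other label.

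Kinetochore genes, 14 in number, had medians of −0.53, −0.27 and −0.17. The strongest differences fell in the NDC80 complex, the rod that binds microtubule ends. SPC24 had the lowest WT ratio of all 53 members, at 17.0, 8.49, 10.2 and 13.0, and was called lower both in WT (−0.93) and in 3NQ (−0.69). NDC80 (GRCh37 chromosome 18 from 2571510 to 2616634) was at 42.9, 22.8, 28.9 and 32.6 (−0.88 in WT), the next lowest. NUF2 was at 28.2, 16.8, 24.8 and 25.8 (−0.72), and SPC25, at 36.2, 25.4, 29.0 and 32.0, was not called (−0.50). The complex summed to 124 in Luc and 73.4 in WT, 59.1% of the control, the lowest share of the 5 complexes summed.

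CENPH was at 20.8, 12.7, 14.3 and 20.7, lower in WT (−0.67) and level with Luc under the ΔTM label (−0.0075). With CENPK (−0.56), CENPI (−0.55) and CENPM (−0.52), subunits of the same centromere-bound assembly, its ratios in WT spanned 0.15. CENPA, the histone H3 variant that marks centromeres, had −0.55, CENPF −0.51, CASC5 (KNL1), the platform on which BUB proteins dock, −0.39, and its partner ZWINT −0.42. ZWINT had the highest mean FPKM of the kinetochore genes, at 98.6, 73.6, 82.2 and 101.

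CENPE and CENPN departed from the common order. CENPE, a kinesin that carries chromosomes to the spindle equator, was at 13.2, 10.7, 8.44 and 15.8. It was lowest in 3NQ (a log2 ratio of −0.59, called lower), and its WT ratio of −0.28 was the smallest of the kinetochore genes. CENPN, which reads the CENPA nucleosome, was at 71.5, 50.6, 85.5 and 47.5, highest in 3NQ (0.25) and lowest in the library labelled ΔTM (−0.58, just short of the threshold). CENPN shares 13773 bases with CMC2 on the opposite strand, which was at 43.4, 40.2, 39.0 and 38.8 and did not follow it.

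**Figure D4:**
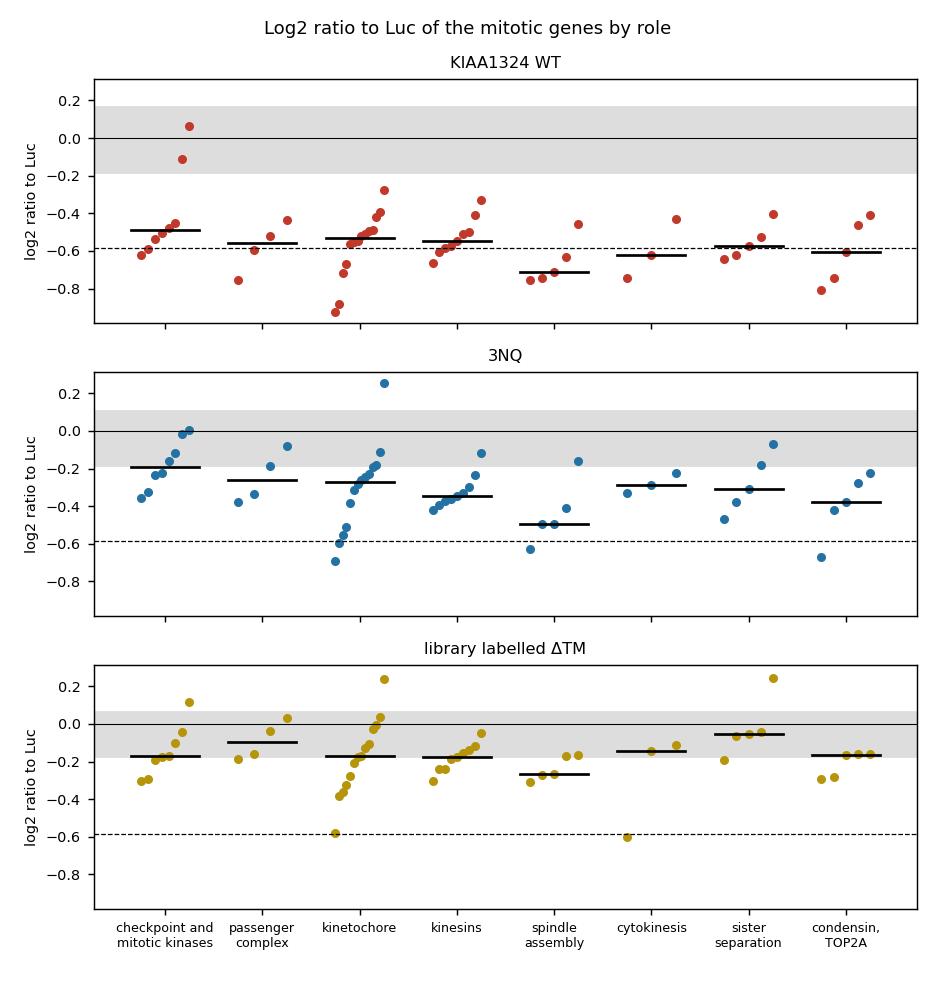
Log2 ratio to Luc of each mitotic gene by role, 1 panel per library, with the role's median as a bar, the middle 50% of all 11769 genes as a grey band and 1.5-fold lower as a dashed line. In WT all points but MAD1L1 and BUB3 lie below the grey band, in 3NQ most do, and in the library labelled ΔTM the role medians lie near its lower edge or within it, except for spindle assembly (−0.27).

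Mitotic kinesins, 9 in number, had medians of −0.55, −0.35 and −0.17, and all 9 were below Luc in each. KIF20A, needed for the final steps of cytokinesis, was at 34.6, 21.4, 26.5 and 27.9 (−0.67 in WT). KIF14, which acts at the midbody, was at 12.8, 8.07, 9.86 and 10.7 (−0.61). These were the 2 called. KIF11, the motor that pushes spindle poles apart, had −0.58, and KIF15, its partial substitute, had −0.50 from the lowest level of all members, 2.76 in Luc. In FPKM without the pseudocount, KIF15 in WT stood at 60.3% of Luc, below KIF20A (62.0%) and KIF14 (63.0%). KIF2C, a microtubule depolymerase and the kinesin of highest mean FPKM, was at 96.8, 66.0, 71.9 and 84.8 (−0.55). KIFC1, a minus-end motor, had −0.57, the chromokinesin KIF4A had −0.51, and KIF23, a subunit of centralspindlin, had −0.41.

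KIF18A, which damps chromosome movements at metaphase, differed least among the kinesins, at 14.1, 11.0, 11.0 and 13.0. WT and 3NQ shared a log2 ratio of −0.33. KIF4B, a near copy of KIF4A, was at an FPKM of at most 0.0447 in any library.

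Spindle assembly genes had the lowest medians of the 8 roles, at −0.71, −0.49 and −0.27. Of the 5, 4 were called lower in WT, where 3.34% of all genes were. HMMR, which anchors spindle poles, was at 31.7, 18.4, 20.2 and 26.2, called lower in WT (−0.75) and 3NQ (−0.63). NUSAP1, a microtubule bundler, was at 144, 85.7, 102 and 116 (−0.74 in WT). ASPM, a spindle pole protein, was at 15.0, 8.78, 10.4 and 13.2 (−0.71), and DLGAP5, which stabilizes kinetochore fibers, was at 49.9, 31.8, 37.3 and 41.2 (−0.63). All 4 followed the order in which WT is lowest and Luc highest. TPX2, the activator of AURKA, was at 132, 96.2, 118 and 118 and was not called (−0.46).

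The 3 cytokinesis genes had medians of −0.62, −0.29 and −0.14. ANLN, the scaffold of the contractile ring and the member of highest mean FPKM, was at 193, 115, 165 and 179 (−0.75 in WT, −0.23 in 3NQ). PRC1, which bundles the central spindle, was at 29.4, 18.8, 23.9 and 19.0, with ratios of −0.62 in WT and −0.60 in the library labelled ΔTM, the only member called in that library. ECT2, the activator of RhoA at the division site, was at 125, 92.2, 98.9 and 113 (−0.43 in WT).

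Genes of sister chromatid separation had medians of −0.58, −0.31 and −0.055. PTTG1, or securin, was at 103, 66.4, 73.9 and 99.6 (−0.62, −0.47 and −0.041). SGOL1, the protector of centromeric cohesin, was at 6.05, 3.52, 4.42 and 7.34, lower in WT (−0.64) and above Luc in the library labelled ΔTM (0.24). UBE2C, the ubiquitin-conjugating enzyme of the anaphase-promoting complex, had the highest mean FPKM of the group at 163, 109, 144 and 156, and its WT ratio of −0.58 lay just short of the threshold. CDC20, the activator of that complex, was at 122, 84.7, 117 and 118 (−0.53 in WT, −0.070 in 3NQ). ESPL1, or separase, was at 17.8, 13.3, 14.2 and 15.5 (−0.40), the smallest difference of the group.

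TOP2A and the condensin I subunits had medians of −0.61, −0.38 and −0.17. TOP2A, which untangles sister chromatids, was at 141, 80.0, 105 and 126, the third lowest WT ratio of the members (−0.81). Of the condensin subunits, NCAPG was at 52.97, 31.3, 33.0 and 47.1, with ratios of −0.74 in WT and −0.67 in 3NQ, called in both. NCAPH was at 61.9, 40.3, 47.4 and 50.3 (−0.61 in WT). The shared ATPases SMC2, at 23.3, 17.3, 19.8 and 20.7 (−0.41), and SMC4, at 166, 120, 137 and 136 (−0.46), were not called.

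Compared by role, the WT medians ran from −0.49 (checkpoint) to −0.71 (spindle assembly), and the lowest and highest members of every role overlapped in range with those of every other. Without the 10 members that were taken as part of the KEGG cell cycle map (BUB1, BUB1B, BUB3, MAD1L1, MAD2L1, TTK, PLK1, ESPL1, PTTG1 and CDC20), the median in WT was −0.56. Of the 43 left, 18 were called lower in WT, compared to 3.34% of all genes. Of the 53 genes, 17 were called lower in WT but not in 3NQ or the library labelled ΔTM, compared to 2.1% of all genes, and whether these differences between libraries exceed error was not tested.

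Other genes of the same processes, listed by function, were set beside the members for WT, where 3.34% of all genes were called lower and 3.36% higher. Among 26 other spindle and cytokinesis genes the median was −0.50, and 6 were called lower, namely NUMA1 (−1.53), CIT (−0.69), TROAP (−0.68), CDCA3 (−0.66), NEK2 (−0.63) and TACC3 (−0.59). NUMA1, which links microtubules to the spindle pole and is made throughout the cell cycle, was at 131, 44.7, 124 and 49.8, low in WT and in the library labelled ΔTM but not in 3NQ. Another list held 20 genes of cyclins, CDK1, other kinases and phosphatases of mitotic entry, and mitotic transcription. The median there was −0.41, and CDC25C (−0.74), CDK1 (−0.67), CCNB2 (−0.66) and MASTL (−0.65) were called lower. Among 14 genes of the replicative helicase and PCNA it was −0.42, with CDC45 called (−0.63), but 0.026 in the library labelled ΔTM, where the members had −0.17.

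The remaining lists had medians nearer 0. The median in WT was −0.32 for 27 other kinetochore genes and −0.16 for 18 other condensin and cohesin genes, with none called in either list. It was −0.046 for 17 genes of the anaphase-promoting complex and its regulators, of which UBE2S (−0.59) and FBXO5 (−0.63) were called lower. The 20 interphase kinesins and kinesin light chains passing the filter had a median of 0.11, and none was called lower and KIF7 was called higher (0.77), where the 9 mitotic kinesins had −0.55. The highest of these 9, KIF18A at −0.33, was level with KIF27, the lowest of the 20, at −0.32. Kinesins of mitosis that stand in other lists were not all so low, with CENPE at −0.28 and KIF2A at 0.068. Among 21 tubulin and actomyosin genes the median was 0.086, and TUBA1A (1.40), TUBB2A (0.83) and TUBB3 (0.65) were called higher. TUBA1A was at 14.7, 40.4, 90.6 and 103, lower in WT than in 3NQ or the library labelled ΔTM.

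**Figure D5:**
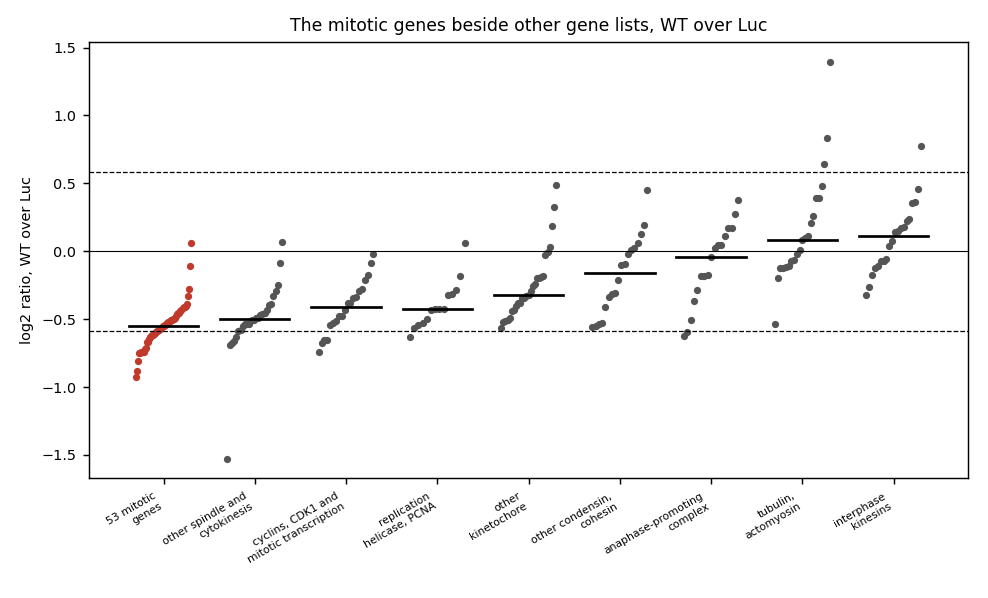
Log2 ratio of WT to Luc for the 53 mitotic genes (red) and for 8 other lists (grey), 1 point per gene with the median as a bar and dashed lines at 1.5-fold. The medians run from −0.55 in the mitotic genes to 0.11 in the interphase kinesins.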

How the data were processed

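Poly(A) RNA of MKN28 cells from each of 4 groups was made into 1 library and sequenced. Per the labels and the methods of the study, the authors aligned filtered reads to GRCh37 with TopHat. Cufflinks 2.1.1 then gave gene-level FPKM, with non-coding genes masked and its options for multi-mapping reads and fragment bias switched on. FPKM as deposited is scaled for library size and gene length, and the depth behind it is unknown. Each library was identified by its title in the table header. From these values, log2 ratios with a pseudocount of 1 were computed for genes reaching an FPKM of 1 in any library, using Python 3.11.15, numpy 2.4.6 and pandas 2.3.3, and drawn with matplotlib 3.10.9. A ratio of at least 1.5-fold was called. A repeated symbol takes the entry with the highest mean FPKM. With no replicates, no test was made. Lists and roles were written from general knowledge, and the members and lists were chosen with earlier results of these data known. Per-library values are given for BUB1, for members called in any library, and for the members of highest mean FPKM and smallest difference in each role, and values of other members and of genes sharing bases with one were chosen after they were seen. Promoters came from RefSeq. The ratios, the calls and the rescaling by the median of ratios were run on simulated data with planted 2-fold changes. Changes near 1.5-fold and the promoter, overlap, and length and GC steps were not simulated. Whether libraries keep strand is not stated, and 15 members overlap a gene on the opposite strand.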

Additional observations from a re-analysis of the deposited data

Results flagged for a closer look

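For 3 of the 53 mitotic genes, libraries lay on opposite sides of Luc by at least 0.2 on the log2 scale. The share of all genes meeting this rule was not computed, so whether 3 of 53 is many cannot be told. Each value is from 1 library, and these differences were not tested. CENPE had a log2 ratio to Luc of −0.28 in WT and −0.59 in 3NQ but 0.24 in the library labelled ΔTM. CENPN had −0.49 in WT and −0.58 in the library labelled ΔTM but 0.25 in 3NQ. SGOL1 had −0.64 in WT and −0.38 in 3NQ but 0.24 in the library labelled ΔTM, from an FPKM of 6.05 in Luc.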

How the results depend on the processing

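The median log2 ratio of the members in WT was below 0 under each of the alternatives run. It ran from −0.58 (pseudocount of 0.1) to −0.32 (mean of 3NQ and the library labelled ΔTM as the control). The medians of 3NQ and the library labelled ΔTM were also below 0 in each alternative run for them, which leaves out that mean. An FPKM of at least 5 left 52 members, and 43 remained without the members on the cell cycle map. The count called lower in WT, 21 as reported, was 0 at a 2-fold threshold and 10 with a pseudocount of 5. Against the mean of 3NQ and the library labelled ΔTM it was 2. Shares of all genes called lower were 3.34% as reported and 0.569%, 1.09% and 1.88% under these settings, in that order. The WT count was 25 with a pseudocount of 0.1, 19 after rescaling by the median of ratios and 22 after upper-quartile rescaling. Of all genes, 5.6%, 3.11% and 3.35% were then called lower, in that order. In 3NQ the count, 4 as reported, was 0 at 2-fold, 1 with a pseudocount of 5 and 2 after upper-quartile rescaling. The matching shares of all genes were 2.57%, 0.518%, 0.782% and 2.02%. In the library labelled ΔTM the count, 1 as reported, was 0 at 2-fold and with a pseudocount of 5. It was also 0 after either rescaling (upper quartile, median of ratios), and 2 with a pseudocount of 0.1. Of all genes, 1.57% were called lower there as reported, then 0.433%, 0.476%, 1.25% after either rescaling, and 3.29%. A pseudocount of 5 also moved the medians of the kinesins (−0.45 in WT) and of the spindle assembly genes (−0.58 in WT, −0.38 in 3NQ). Against that mean as the control, the WT medians were −0.29 (checkpoint), −0.36 (passenger), −0.33 (kinetochore), −0.27 (kinesin), −0.32 (spindle assembly), −0.20 (cytokinesis), −0.45 (sister separation) and −0.27 (condensin). The median of the sister separation genes in the library labelled ΔTM, near 0 as reported, turned to 0.0073 after rescaling by the median of ratios, 0.0027 after upper-quartile rescaling and 0.088 without the members on the cell cycle map. The cause of these shifts was not tested beyond what each alternative changes by construction. The count in WT stayed at 21 with no filter, an FPKM of at least 5, or summed repeated entries. It was also 21 with the trend with transcript length and GC content removed, 20 of them among the genes called as reported. Of all genes, 1.82%, 2.69%, 3.34% and 3.17% were then called lower, in that order. No paired analysis was possible because each group holds 1 library. Unknown depth limits every single value.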

Other observations

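The CHR motif was also followed outside the mitotic genes, a choice made after the members' promoters were seen. Of the 9314 genes passing the filter with a promoter window, 362 held TTTGAA from 100 bases before to 50 bases after the start. Among the 332 of these that are not members, 7.23% were called lower in WT and the median log2 ratio to Luc was −0.086. Among the 8952 genes without it, 2.67% were called lower and the median was 0.00054. These 332 genes include further mitotic genes, 12 of them from the list of other spindle and cytokinesis genes, and no test of the difference was made. The replicative helicase genes and PCNA held the motif in 0 of 11 windows, although their median in WT was −0.42.

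PTTG2, a near copy of PTTG1, was listed at 0 in each library. SMC4 overlaps TRIM59 on the opposite strand, whose more abundant entry had FPKM values, ordered as in the report, of 43.9, 29.3, 37.3 and 37.8. NCAPG overlaps LCORL, at 13.6, 9.22, 9.58 and 9.77. Reads of such pairs cannot be told apart if the libraries do not keep strand.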
